A study of Mus musculus with 24 samples.

Results

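The HOX cluster regions are stretches of open chromatin at the 39 protein-coding genes named Hoxa, Hoxb, Hoxc or Hoxd and a number, in epidermal stem cells (EpdSCs) of mouse skin and in cultured keratinocytes. Peaks of all 12 peak lists that overlapped by at least 1 bp were merged into 134385 regions, and the 77 regions that overlapped a Hox gene body or the 5 kb on either side of it were the members. They were 22 regions at Hoxa, 27 at Hoxb, 20 at Hoxc and 8 at Hoxd. The assay was ATAC-seq, which uses Tn5 transposase to tag DNA that nucleosomes leave free, on 24 samples forming 12 groups of 2 replicates. The authors merged the replicates of each group before calling peaks, so each group is 1 list, no value below has a spread between replicates, and no test between groups could be made.

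The skin lists came from male CD1 mice with K14rtTA, in which the Krt14 promoter drives the doxycycline (DOX) dependent activator in skin epithelium, and TRE-myc-Sox9, the Sox9 transgene that it switches on. Per the study's methods EpdSCs of several mice were pooled in each replicate. The labels give the sort as CD49f-high, CD34-negative and Ly6A-high cells that lacked CD31, CD45, CD117 and CD140a. The D0 list was taken at postnatal day 21 before DOX, and the W1, W2 and W6 lists after 1, 2 and 6 weeks of DOX at postnatal days 28, 35 and 63. The W12 list, after 12 weeks of DOX, came from newborn skin of the same genotype grafted onto immunocompromised female hosts and healed for 21 days before DOX, so week and tissue source cannot be told apart for it. The 7 culture lists were keratinocytes from newborn back skin that all carried K14rtTA. The noDOX list is the uninduced state of the WT-SOX9 cells, and 6 arms received DOX at 1 µg per ml. WT-SOX9 expressed the intact protein, noHMG-SOX9 a form that lacks the HMG domain by which SOX9 binds DNA, and noTA-SOX9 a form that lacks the domain for transactivation. AFOS expressed a FOS protein that keeps AP1 factors off DNA (TRE-FLAG-AFOS), SOX9+AFOS that protein with SOX9, and SOX9+ARID1a SOX9 with a subunit of the SWI/SNF remodeller (TRE-ARID1a). DOX lasted 3 days in replicate 1 of WT-SOX9, noHMG-SOX9 and noTA-SOX9 by their labels, and its length in the other DOX samples was not given there. Per the study's methods these constructs were delivered by lentivirus, AFOS and ARID1a in the combined arms to cells that held the TRE-myc-Sox9 transgene. No uninduced list of the last 3 arms was used here, so cell source and arm cannot be told apart for the combined arms.

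HOX genes encode homeodomain transcription factors that give cells their position along the body axis. They lie in 4 clusters whose gene order follows the order of their expression, with low-numbered genes active toward the head and high-numbered genes toward the tail and the ends of the limbs. In skin they are known for marking body site, chiefly in fibroblasts, and Hoxc13 is known for its need in hair. Clusters that are not in use are held by Polycomb proteins, which compact chromatin over long CpG-rich stretches.

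The strength of a peak is given by the normalized peak score that the authors deposited, of which none was below 3 in any list. A missing peak therefore means a score under that threshold and not closed chromatin, and read depth is unknown here. Sets of 5 skin values below run in the order D0, W1, W2, W6 and W12. The score of 3 stood for different evidence in the skin lists, with a lowest −log10 q-value of 14.5, 9.37, 4.21, 5.74 and 10.1. The epidermal stem cell markers Krt5, Krt14, Trp63, Itga6, Itgb4 and Col17a1 had a peak within 1 kb of a start in all 12 lists, whereas Ly6a had one at D0 and W2 alone. None of 5 immune and 3 muscle markers had one in any list. Of 7 fibroblast markers, Pdgfra had one in all 12 lists, Col1a1 in all but SOX9+ARID1a, and Twist2, Prrx1, Dpt, Col1a2 and Col3a1 in none. Of the 5 melanocyte and mast cell markers, Dct had one in the 5 skin lists (scores 20.1 to 38.0) and in SOX9+AFOS (17.7), Mlana in SOX9+AFOS alone, Pmel in all 12, and Kit and Sox10 in none. Of 4 endothelial markers, Pecam1 had one in all lists but W1, Kdr in 6, Cdh5 in 2 and Tie1 in none, and 3 to 6 of 6 hair follicle stem cell markers had one in each list. A peak confined to the last exon of Sox9, where reads of the transgene would align, was absent from the list labelled W1. It scored 13.5 at D0, before DOX, 15.1 at W2, 9.22 at W6 and 8.84 at W12. In culture it was present in noDOX (3.71), SOX9+AFOS (5.11) and SOX9+ARID1a (3.71), and a peak not confined to the exon overlapped it in WT-SOX9 and noHMG-SOX9. No peak overlapped it in AFOS, which has no SOX9 construct, or in noTA-SOX9, which has one. The main counts that include W1 are given without it too. In 3 culture lists (AFOS and both combined arms) the peak names record fragments as input, so peak calling and arm cannot be told apart for these 3.

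The sequences that carry the main contrasts are shown with 200 bases each, read from GRCm38 on the plus strand. A region is named by the nearest Hox start (of the transcript with the longest coding sequence) and the distance in bp from that start to the region's centre, positive in the direction of transcription. Capitals mark matches to any of 6 consensus sequences, searched on both strands: ACAATAG or ACAATGG for SOX, TGACTCA or TGAGTCA for AP1, AGATAA for GATA factors, TGTGGT for RUNX, TGATTNAT for HOX-PBX pairs, and the CTCF consensus. None of these contains another. The Hoxa2 region is shown because all 5 skin lists and no culture list held it.
Hoxa2 -1173, chr6:52165940-52166139, plus strand: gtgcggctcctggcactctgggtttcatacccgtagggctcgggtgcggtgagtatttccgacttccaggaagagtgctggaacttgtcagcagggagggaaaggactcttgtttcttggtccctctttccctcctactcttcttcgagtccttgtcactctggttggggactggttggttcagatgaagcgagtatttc
The Hoxb6 region is shown because all 7 culture lists and no skin list held it.
Hoxb6 -284, chr11:96292093-96292292, plus strand: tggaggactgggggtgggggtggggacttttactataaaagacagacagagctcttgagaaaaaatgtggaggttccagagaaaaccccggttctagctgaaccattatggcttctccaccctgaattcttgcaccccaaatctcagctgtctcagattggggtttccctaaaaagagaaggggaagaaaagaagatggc
The last 3 are a region lower in culture than in skin, a region seen in the graft and no other skin list, and the region at the Hoxd1 start.
Hoxc4 +7133, chr15:103041727-103041926, plus strand: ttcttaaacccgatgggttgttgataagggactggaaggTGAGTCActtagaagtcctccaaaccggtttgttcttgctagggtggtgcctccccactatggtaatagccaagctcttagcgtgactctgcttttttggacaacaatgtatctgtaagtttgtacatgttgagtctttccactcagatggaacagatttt
Hoxa5 +2919, chr6:52201554-52201753, plus strand: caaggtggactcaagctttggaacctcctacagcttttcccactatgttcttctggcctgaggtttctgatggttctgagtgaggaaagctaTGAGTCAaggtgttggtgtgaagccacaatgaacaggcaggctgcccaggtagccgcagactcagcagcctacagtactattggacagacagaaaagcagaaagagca
Hoxd1 +93, chr2:74762780-74762979, plus strand: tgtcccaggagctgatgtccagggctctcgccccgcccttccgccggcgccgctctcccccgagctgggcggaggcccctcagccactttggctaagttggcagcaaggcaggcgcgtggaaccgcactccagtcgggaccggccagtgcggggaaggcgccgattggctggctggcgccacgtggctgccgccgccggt
The Hoxc4 and Hoxa5 stretches each hold 1 AP1 match, TGAGTCA. The Hoxd1 stretch, which ends 1 bp before the Hoxd1 start, had a GC content of 73.0% and 21 CpG pairs, against 48% and 1 in the Hoxb6 stretch.

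To ask where the clusters were open, members were counted by cluster and list. The Hoxa genes lie on chromosome 6. In GRCm38 the Hoxb genes span chr11:96194316-96368256, the Hoxc genes chr15:102921103-103036852 and the Hoxd genes chr2:74668310-74765142. Hoxb had 23.3 regions per 100 kb of gene bodies and flanks, Hoxa 19.4, Hoxc 16.7 and Hoxd 7.82. Hoxd was the sparsest cluster although its 9 genes have the same flanks as the 9 of Hoxc. Its 8 regions were also the richest in GC (median 67.1%, against 54.3 to 56.0% in the other clusters) and in CpG (median observed to expected ratio 0.868, against 0.468 to 0.583). Over all 77 regions these medians were 56.9% and 0.574, and over all regions on the autosomes and X 47.7% and 0.207.

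Of the 77 regions, 28 were in skin lists only (36.4%), 11 in culture lists only (14.3%) and 38 in both (49.4%). Over all regions the shares were 27.9%, 29.1% and 43%. Without W1 the HOX counts were 25, 15 and 34 of 74. All 12 lists held 9 HOX regions (11.7%, against 14.1% of all regions), 6 of them at Hoxa, 2 at Hoxb, 1 at Hoxc and none at Hoxd. A single list held 17.

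**Figure D1:**
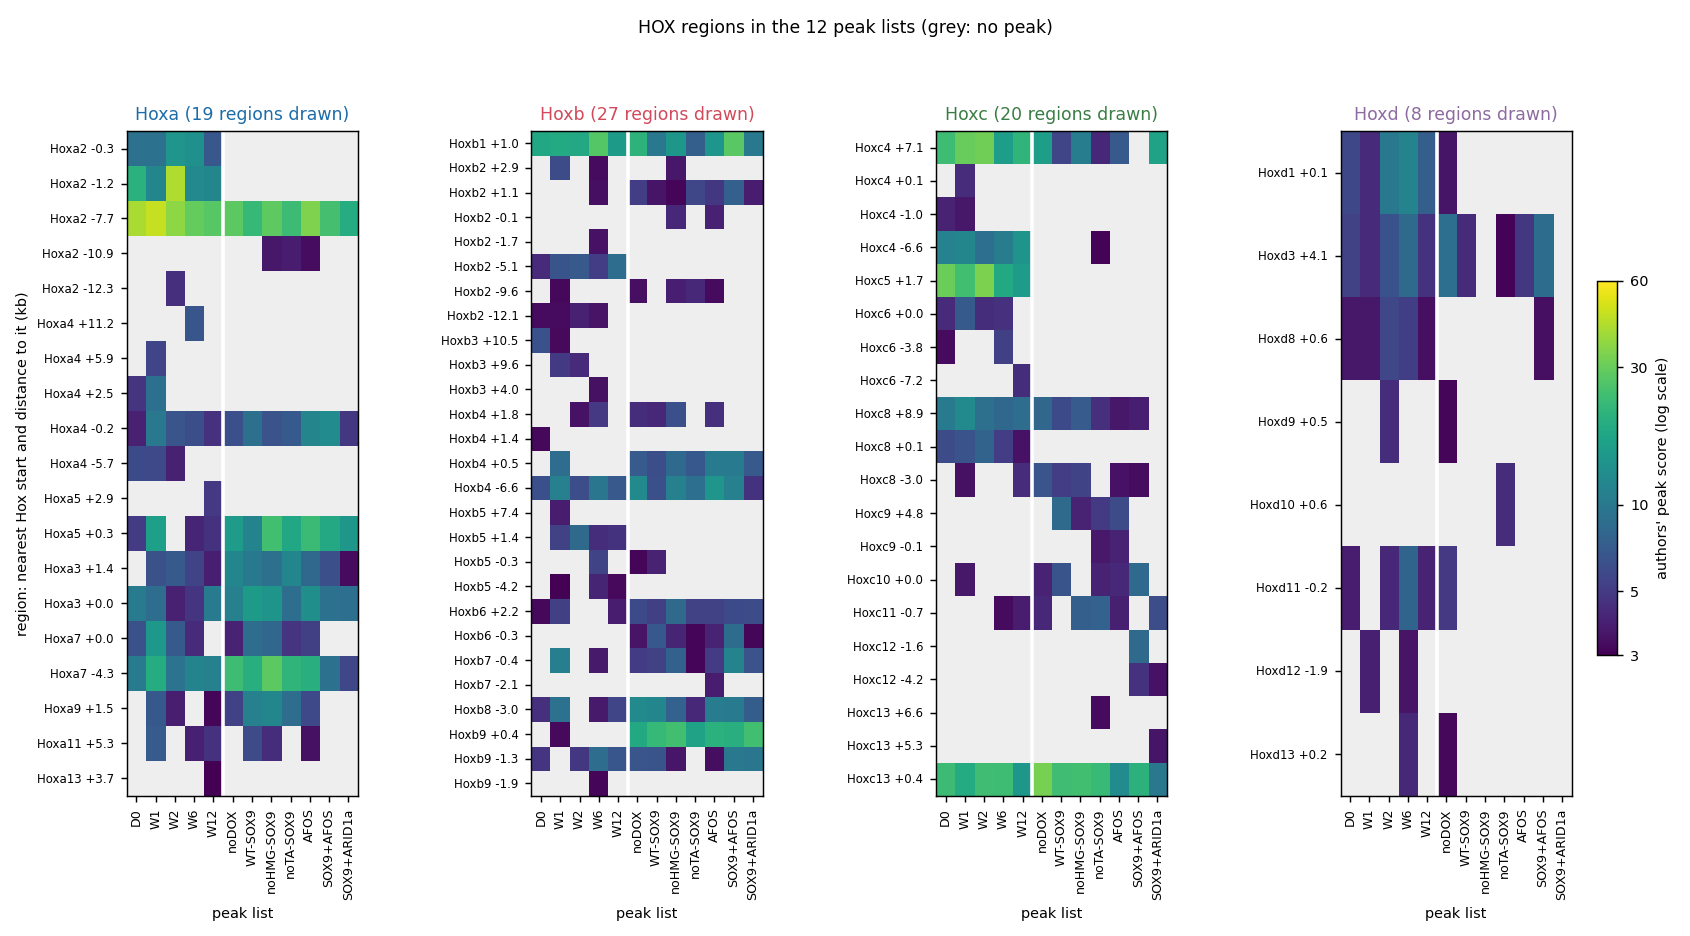
Each row is 1 of 74 HOX regions, named by the nearest Hox start and the distance to it in kb, each column 1 peak list (5 skin lists left of the white line, 7 culture lists right of it), and the colour gives the authors' peak score on a log scale with grey for no peak. The 8 Hoxd rows reach at most 11.5, and the Hoxc5 +1.7 and Hoxa2 -1.2 rows stop at the white line.

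In skin the number of HOX regions was 35, 48, 34, 44 and 36. In culture it was 35 in noDOX, 30 in WT-SOX9, 33 in noHMG-SOX9 and noTA-SOX9, 36 in AFOS, 27 in SOX9+AFOS and 24 in SOX9+ARID1a. HOX peaks made up 0.0414% (SOX9+ARID1a) to 0.0866% (W1) of a list. The median score of the HOX peaks was below that of the list in all 12 lists, with 5.78 against 9.96 at D0 and 6.41 against 10.8 in noDOX. The skin counts rest on the threshold. With a common −log10 q minimum of 14.5 the HOX peaks numbered 36, 37, 14, 16 and 28, against 36, 50, 36, 46 and 39 as deposited.

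Hoxb carried most of the difference in number between skin lists. W1 and W6 each had 16 Hoxb regions, whereas D0 had 9 and W2 and W12 had 8. Hoxa varied less, from 13 at D0 and W6 to 17 at W1. Hoxc had 7 to 11 regions in skin and 5 to 9 in culture. With the common −log10 q minimum the Hoxb counts were 9, 10, 2, 3 and 6 and the Hoxa counts 13, 17, 6, 6 and 11, so that Hoxb then no longer carried most of the difference. Hoxd had 4 to 6 regions in skin, 5 in noDOX and 0 to 2 in the 6 DOX arms, with 0 in noHMG-SOX9 and SOX9+ARID1a. Of the noDOX peaks at Hoxd, only Hoxd3 +4099 (8.99) scored at least 5. With the common −log10 q minimum the Hoxd counts in skin were 4, 0, 1, 3 and 2.

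**Figure D2:**
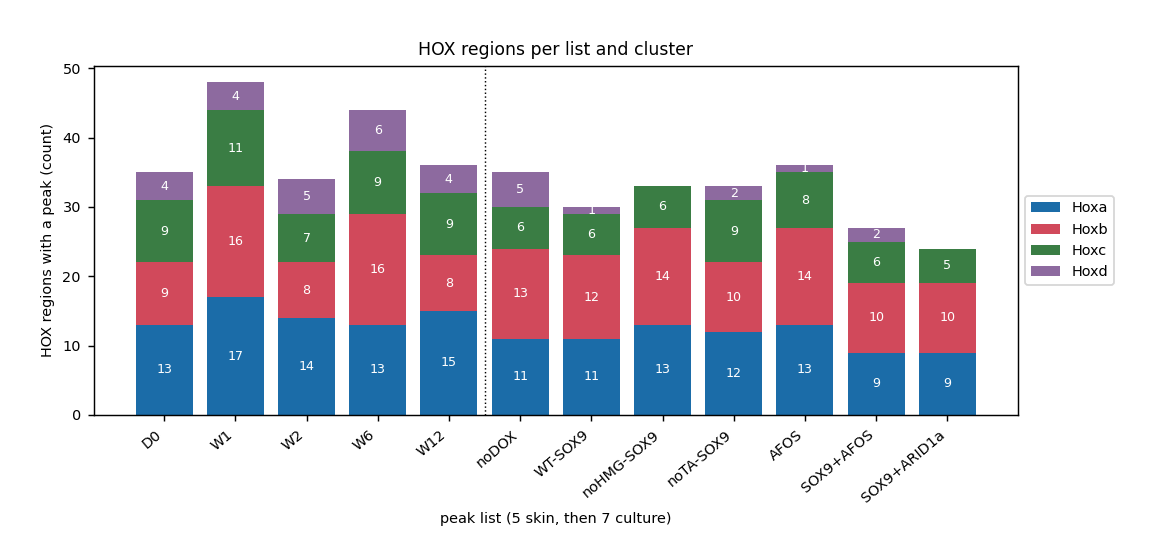
Bars give the number of HOX regions with a peak in each of the 5 skin and 7 culture lists, split by cluster. Hoxd has 5 regions in noDOX, of which only Hoxd3 +4099 (8.99) scored at least 5, and between 0 and 2 in the DOX arms. Hoxb stands at 16 in W1 and W6 against 8 or 9 in the other skin lists.

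Along the clusters, regions were grouped by the number of the nearest gene. At D0, 21 of the 35 regions lay nearest to genes numbered 1 to 4, 11 to genes 5 to 8, and 3 to genes 9 to 13. In noDOX these counts were 16, 10 and 9 of 35. There are 12 genes numbered 1 to 4, 11 numbered 5 to 8 and 16 numbered 9 to 13. Some peaks at genes 9 to 13 scored under 5. In noDOX these were Hoxd9 +485 (3.17), Hoxd13 +236 (3.19), Hoxc10 +6 (4.03), Hoxc11 -698 (4.17) and Hoxd11 -249 (4.93). At D0 they were Hoxd11 -249 (3.83) and Hoxb9 -1342 (4.76). Of the 20 regions at genes 9 to 13, 3 were in skin lists only, 7 in culture lists only and 10 in both. Of the 36 regions at genes 1 to 4, 16 were in skin lists only and 2 in culture lists only. Over all regions 27.9% were in skin lists only and 29.1% in culture lists only. In Hoxc all 6 culture-only regions lay at genes 9 to 13 and all 7 skin-only regions at genes 4 to 8. None of those 6 had a peak in noDOX, 5 of them were in only 1 or 2 of the DOX arms, and their scores ran from 3.29 to 8.49. The classes pool 5 skin and 7 culture lists, and the counts were not tested. W1 was the only skin list with a peak at Hoxb9 +410, Hoxc10 +6, Hoxb4 +534 and Hoxb2 -9590. Without W1 these became culture-only, and Hoxc10 +6 had a noDOX peak (4.03). Hoxa4 +5898, Hoxb5 +7374 and Hoxc4 +108 were in W1 alone and dropped out.

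**Figure D3:**
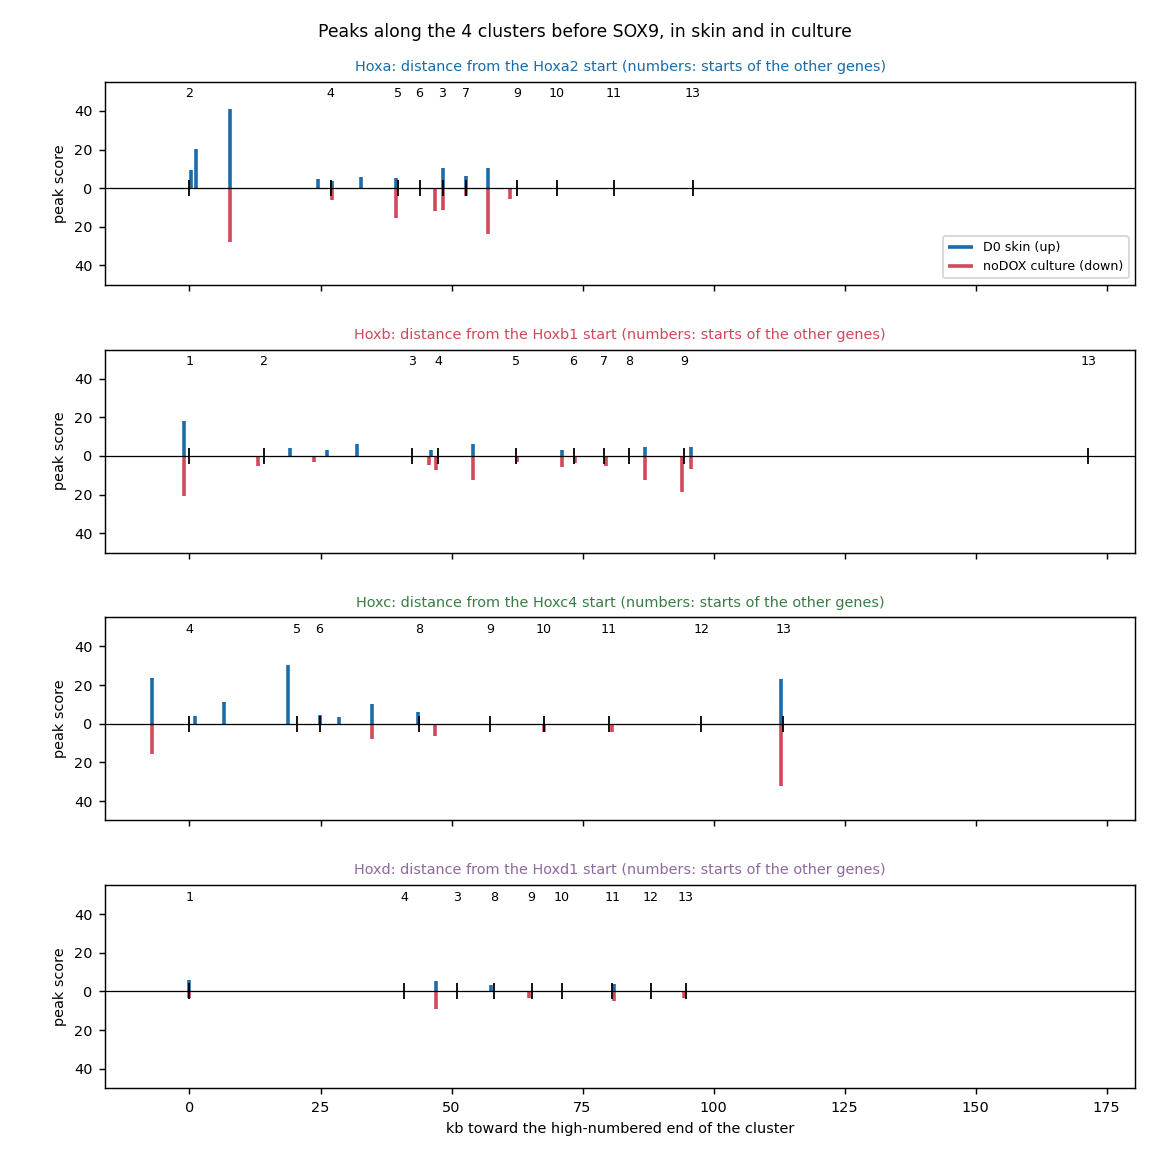
Vertical lines give the peak score of HOX regions at D0 in skin (upward) and in noDOX culture (downward) against the distance in kb from the start of the lowest-numbered gene drawn in each cluster, with ticks at the starts of the genes. The Hoxc peaks of D0 lie around Hoxc4 to Hoxc8 and at Hoxc13, with scores up to 30.5, and the Hoxd peaks are all below 10 in both lists.

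Gene starts were then examined one gene at a time, a start being open when a peak lay within 1 kb of any annotated start. At D0, 14 of 39 Hox starts were open (35.9%, 95% Wilson interval 22.7 to 51.6%), where 61.0% of all 21755 protein-coding genes were. The interval covers counting error only. In the later skin lists the counts were 22 (all genes 60.9%), 14 (61.5%), 20 (63.9%) and 17 (62.1%). Under the common −log10 q minimum the 5 skin counts were 14, 15, 7, 8 and 11, so that W6 stood below D0 instead of above it, as it did with lists of equal size (9 against 10) but not with a score of at least 5 (12 against 10). In culture 23 were open in noDOX (57.7%), 18 in WT-SOX9 (57.4%), 17 in noHMG-SOX9 (56.6%), 20 in noTA-SOX9 (57.3%), 20 in AFOS (55.7%), 16 in SOX9+AFOS (55.3%) and 12 in SOX9+ARID1a (51.9%). The noDOX share of 59.0% was the nearest to that of all genes and the SOX9+ARID1a share of 30.8% the lowest. The open Hox starts were also weaker, with a median score of 8.06 at D0 against 22.9 over all open starts, and of 5.16 against 26.8 in noDOX. Counting only starts that a peak covers, 7 Hox starts were open at D0 (17.9%, all genes 56.7%) and 14 in noDOX (35.9%, all genes 54.1%), so that the noDOX share was then below that of all genes.

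The starts of 6 genes were open in all 12 lists (15.4%, all genes 47.7%), among them Hoxa3, Hoxa4, Hoxa7, Hoxb1 and Hoxc13. A further 9 were open in none (23.1%, all genes 31.2%), namely Hoxa6, Hoxa11, Hoxa13, Hoxb8, Hoxb13, Hoxc12, Hoxd3, Hoxd4 and Hoxd12. Hoxa2, Hoxc4 and Hoxc8 were open in skin lists only (7.69%, all genes 6.12%), and Hoxc9 and Hoxd10 in culture lists only (5.13%, all genes 2.55%). Without W1 the genes open in culture alone numbered 7 (17.9%, all genes 2.69%), with Hoxb4, Hoxb7, Hoxb9, Hoxc5 and Hoxc10 added. Some annotated transcripts start far from the coding gene, so that Hoxc5 and Hoxc10 share 1 start region, and Hoxa9 and Hoxa10 were open only at starts other than that of the longest coding transcript.

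**Figure D4:**
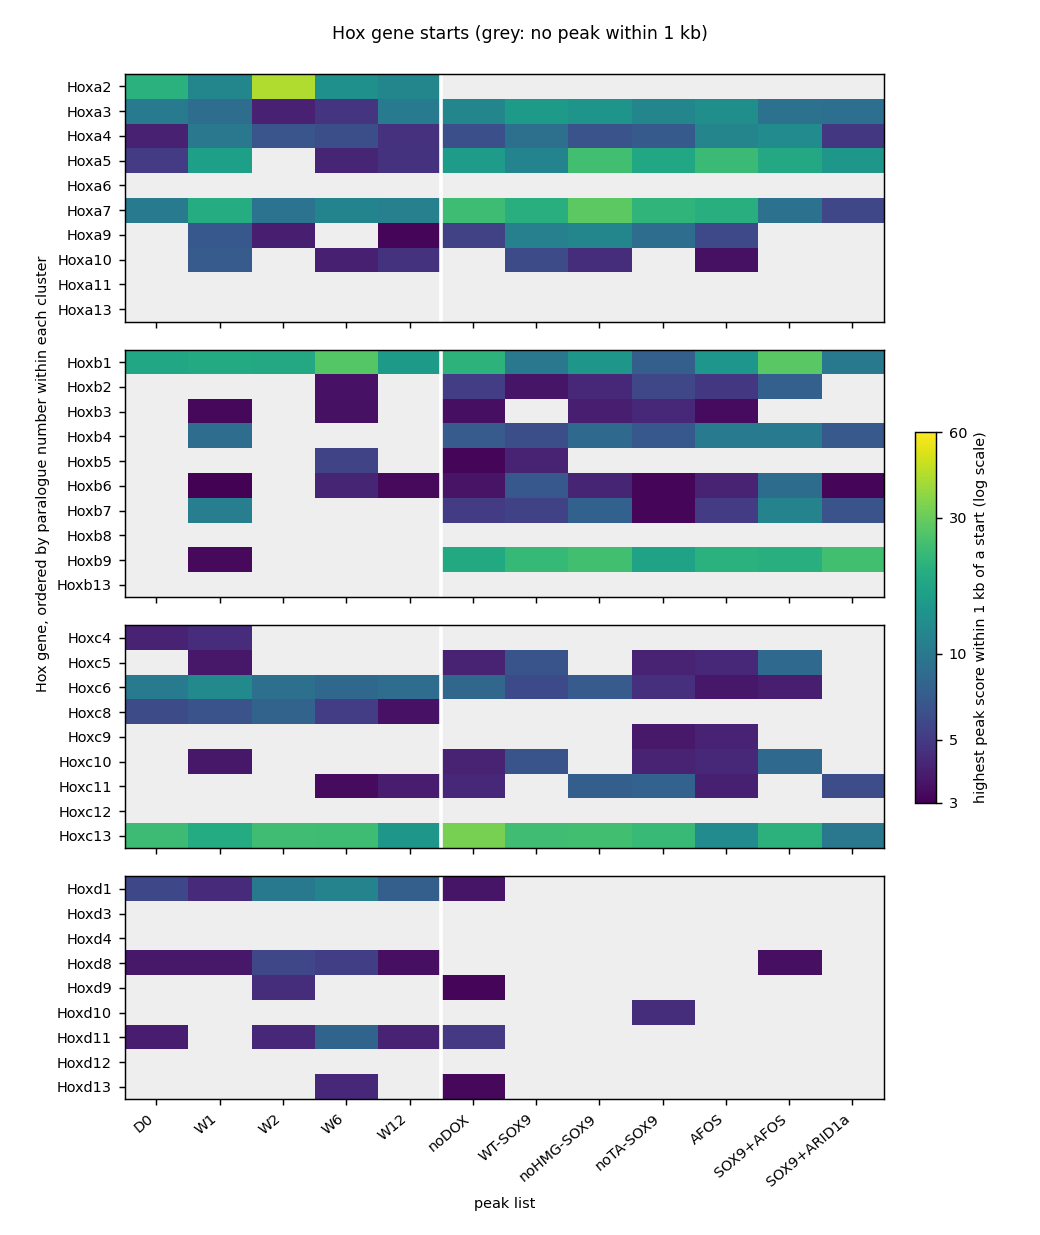
Each row is 1 of 38 Hox genes, by paralogue number within its cluster, each column 1 peak list, and the colour gives the highest peak score within 1 kb of a start on a log scale, with grey for no peak. Hoxa2 and Hoxc8 are coloured in skin alone, and Hoxb4, Hoxb7 and Hoxb9 are coloured in all 7 culture lists and at W1.

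To ask which regions belonged to skin, those in all 5 skin lists and no culture list were named. There were 5 of the 20 HOX regions that all skin lists held (25%, interval 11.2 to 46.9%), against 16.3% of all regions so held. Without W1 they were 5 of 22 (22.7%, all regions 17.8%). The Hoxc5 +1710 region was the strongest, with scores of 30.5, 24.2, 33.3, 18.6 and 15.7. It lay above 72.8 to 89.0% of the peaks of each skin list. The region covers coding sequence and the untranslated end of Hoxc5, and its left edge lies 28 bp from the hairpin of Mir615, a microRNA gene inside Hoxc5.

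The Hoxa2 -1173 region scored 20.3, 11.8, 42.2, 12.3 and 11.9. Its neighbour Hoxa2 -327, just upstream of the Hoxa2 start, scored 9.24, 9.25, 14.3, 13.5 and 6.79. Both were highest at W2. Hoxa2 encodes the factor known for patterning the hindbrain and the second pharyngeal arch, and the larger region also lies in an intron of the noncoding gene Hoxaas2. The other members of this class were Hoxb2 -5146, in untranslated sequence of Hoxb3 (4.29, 6.51, 6.93, 5.17 and 8.73), and Hoxc8 +121, at the Hoxc8 start (5.95, 6.42, 7.75, 5.19 and 3.48). Near the threshold, a fall of a few units would remove a peak of that size from a list.

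Other regions were held by all skin lists and stood higher there than in culture. Hoxc4 -6597, in an intron of Hoxc4, scored 11.3, 11.9, 8.94, 10.5 and 14.2 in the skin lists and had 1 culture peak, in noTA-SOX9 at 3.09. Hoxc4 +7133, beyond the 3′ end of Hoxc4, scored 23.7, 29.8, 31.5, 16.0 and 21.3 in skin. In culture it scored 15.9 in noDOX, 5.64 in WT-SOX9, 10.7 in noHMG-SOX9, 4.17 in noTA-SOX9, 6.92 in AFOS and 16.9 in SOX9+ARID1a, and SOX9+AFOS had no peak there. The ranges of skin and culture overlapped only in that the SOX9+ARID1a score exceeded the W6 score.

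Hoxa5 +265, at the start of Hoxa5, was held by 4 of the 5 skin lists and all 7 culture lists, and 4 culture lists scored above every skin list. In skin it scored 5.09 at D0, 16.3 in the list labelled W1, 4.10 at W6 and 4.63 at W12, with no peak at W2. In culture it scored 15.6 in noDOX, 11.6 in WT-SOX9, 24.1 in noHMG-SOX9, 17.9 in noTA-SOX9, 23.1 in AFOS, 18.4 in SOX9+AFOS and 14.6 in SOX9+ARID1a. The ranges overlapped through W1 alone, and noDOX was 3.07 times D0.

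Hoxb9 +410, over the start and first coding exon of Hoxb9, was absent at D0, W2, W6 and W12 and scored 3.24 at W1. All 7 culture lists held it, with 18.5 in noDOX, 22.2 in WT-SOX9, 24.1 in noHMG-SOX9, 16.8 in noTA-SOX9, 20.3 in AFOS, 19.7 in SOX9+AFOS and 24.2 in SOX9+ARID1a. Hoxb4 +534, at the Hoxb4 start, was held by the same lists, with 6.13 to 10.2 in culture and a W1 score of 8.73 that lay within that range. Hoxb6 -284 was the only one of the 18 HOX regions held by all culture lists that no skin list held (5.56%, against 5.38% of all regions so held). It scored 3.12 to 8.62 in culture. Without W1 the count was 3 of 18 (16.7%, all regions 5.65%), with the Hoxb9 and Hoxb4 regions added.

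Other strong members had overlapping scores in skin and culture. Hoxa2 -7726, in the coding part of Hoxa3, scored 41.0, 46.2, 35.9, 29.6 and 27.6 in skin and 19.1 to 33.6 in culture, and was the highest Hoxa region in every skin list but W2, where Hoxa2 -1173 scored 42.2. Hoxc13 +387, at the start of the hair gene Hoxc13, scored 23.3, 18.9, 24, 23.8 and 14.6 in skin and 9.93 (SOX9+ARID1a) to 32.3 (noDOX) in culture. Hoxb1 +961, in the intron of Hoxb1, was the highest Hoxb region in all 5 skin lists and in noDOX and SOX9+AFOS, whereas Hoxb9 +410 was higher in the other 5 culture lists. It scored 17.9, 18.8, 18.2, 27.2 and 15.3 in skin and 7.41 (noTA-SOX9) to 28 (SOX9+AFOS) in culture.

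**Figure D5:**
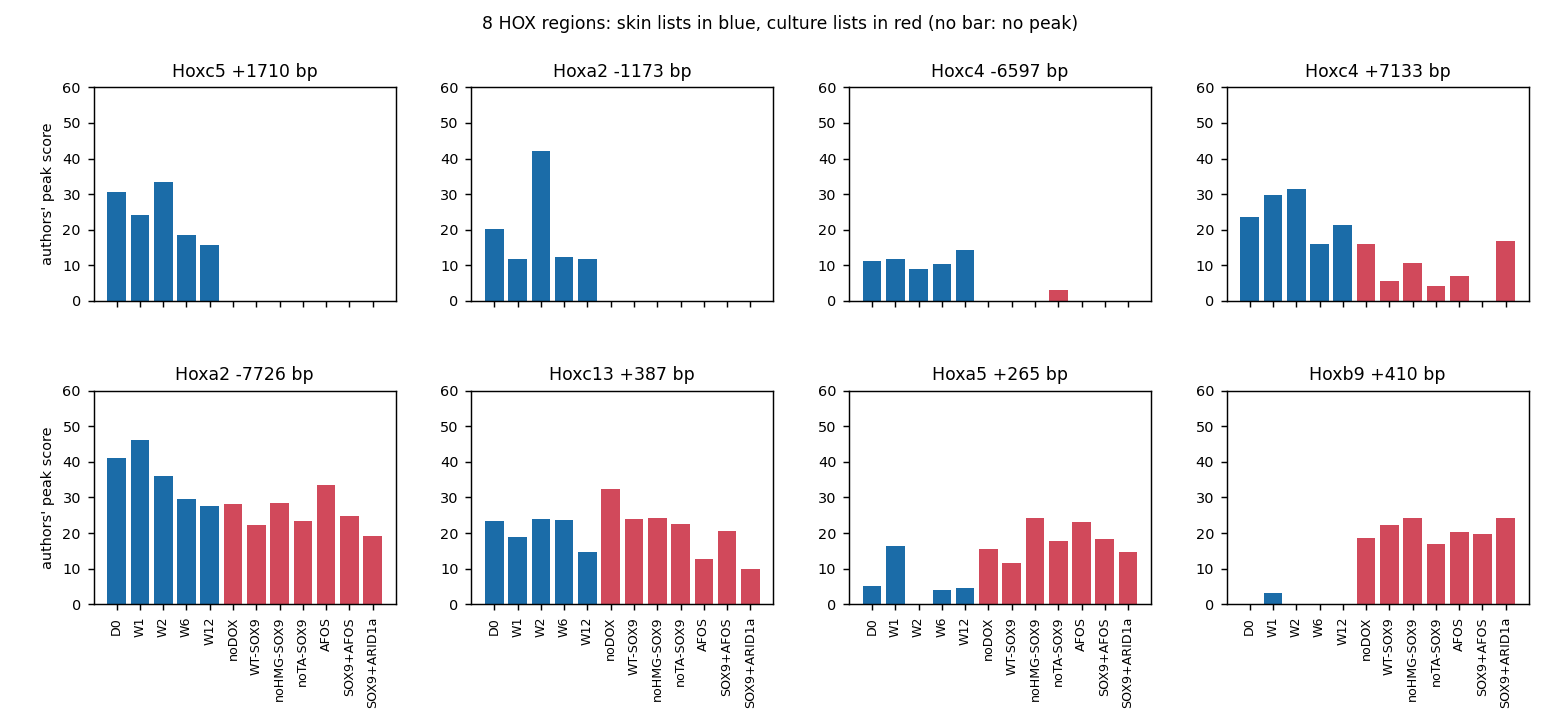
Bars give the authors' peak score of 8 HOX regions in the 5 skin lists (blue) and the 7 culture lists (red), with no bar where a list had no peak. Hoxc5 +1710 and Hoxa2 -1173 have skin bars alone, Hoxb9 +410 has culture bars and a score of 3.24 at W1, and the Hoxa5 +265 bars reach 24.1 in culture against at most 16.3 in skin.

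The uninduced pair, D0 skin and noDOX culture, held 35 HOX regions each. Of the D0 regions, 15 were absent from noDOX (42.9%, interval 28 to 59.1%), where 41.2% of all D0 regions were. Of the noDOX regions, 15 were absent from D0 (42.9%), where 38.9% of all noDOX regions were. The HOX shares thus lay near those of all regions. In the 20 regions that both held, 13 scored higher in noDOX and 7 lower, with a median log2 ratio of noDOX to D0 of 0.42, against 0.12 (SD 1.15 across regions) over all shared regions. Tissue, age and peak calling cannot be told apart in this pair.

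The share of HOX regions that appeared or disappeared in vivo was set beside that of all regions. From D0 to W6 weeks of DOX rose with mouse age, and all skin lists were from transgenic mice by their labels. Time on DOX and age therefore cannot be told apart at these steps. Whether the list labelled W1, which lacked the Sox9 exon peak, is of transgenic skin cannot be told here. From D0 to W1, 17 of 48 W1 regions were new (35.4%, interval 23.4 to 49.6%, all regions 15.0%) and 4 of 35 D0 regions were gone (11.4%, all regions 12.7%). From W1 to W2, 5 of 34 were new (14.7%, all regions 29.0%) and 19 of 48 were gone (39.6%, interval 27 to 53.7%, all regions 24.7%). HOX regions thus rose in number with W1 and fell back with W2. With the list labelled W1 left out, 7 of 34 W2 regions were new against D0 (20.6%, all regions 26.2%) and 8 of 35 D0 regions were gone (22.9%, all regions 19.6%). With the common −log10 q minimum, 10 HOX regions were new at W1 and 10 were gone. With a score of at least 5 there were 15 new and 3 gone, and with lists of equal size 12 and 2.

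From W2 to W6, 16 of 44 were new (36.4%, interval 23.8 to 51.1%, all regions 26.1%) and 6 of 34 were gone (17.6%, all regions 10.9%). Against D0 directly, 16 of the 44 W6 regions were new (36.4%, all regions 38.4%) and 7 of 35 D0 regions were gone (20%, all regions 19.0%). The direction turned under some settings and not under others. From D0 to W6, a score of at least 5 left 9 new and 6 gone, the common −log10 q minimum 1 and 19, and lists of equal size 3 and 11. Between W2 and W6 these settings left 5 new and 3 gone, 5 and 2, and 3 and 7. Among regions that neighbouring lists shared, the median log2 score ratio was 0.11 from D0 to W1, -0.05 from W1 to W2, -0.09 from W2 to W6 and -0.10 from W6 to W12, against 0.07, -0.15, -0.06 and -0.05 over all shared regions.

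In the W12 graft, 36 HOX regions had a peak. Of these, 7 were absent at W6 (19.4%, interval 9.75 to 35%, all regions 14.3%), and 15 of 44 W6 regions were absent from the graft (34.1%, interval 21.9 to 48.9%, all regions 18.7%). With lists of equal size these counts were 3 and 4, and with the common −log10 q minimum they turned to 11 new and 2 gone. Against D0, 10 of the 36 were new (27.8%, all regions 32.8%) and 9 of 35 D0 regions were absent (25.7%, all regions 16.3%). With the common −log10 q minimum the counts against D0 were 5 new and 14 gone. As deposited, Hoxb had 8 regions in the graft against 16 at W6, and at genes 1 to 4 of Hoxb the count was 3 against 9. Under the common −log10 q minimum Hoxb had 6 regions in the graft and 3 at W6. Among the 20 regions that all skin lists held, 7 had their lowest skin score in the graft (35%, against 23.1% of all regions so held), 3 their highest (15%, against 12.4%) and 10 neither. The 7 were Hoxa2 -327, Hoxa2 -7726, Hoxb1 +961, Hoxc5 +1710, Hoxc8 +121, Hoxc13 +387 and Hoxd8 +622, and the 3 were Hoxa3 +6, Hoxb2 -5146 and Hoxc4 -6597.

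Only 3 HOX regions were in the graft and in no other skin list (8.33%, interval 2.87 to 21.8%, against 7.44% of all W12 regions). Hoxa5 +2919, across the 3′ end of Hoxa5, scored 4.94. Hoxc6 -7239, in an intron of a long Hoxc6 transcript, scored 4.45, and Hoxa13 +3677, in an exon of the noncoding gene 9530018H14Rik, scored 3.01. None of the 3 had a culture peak. All 3 were weak, within the lowest 26.8% of the W12 list, and none was kept with a score of at least 5. Without W1 there were 4, with Hoxc8 -2998 (4.38 in the graft) added, which 5 culture lists held. The Hoxa13 region was the only member at Hoxa13, and the window of Hoxb13 held no peak in any list.

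In culture all 6 arms were compared with the same noDOX list, and their values are given side by side. Regions absent from noDOX are called opened and those absent from the arm closed. WT-SOX9 had 2 opened HOX regions (6.67% of its 30, interval 1.85 to 21.3%, all regions 27%) and lacked 7 of the 35 noDOX regions (20%, all regions 27.9%). The 2 were Hoxa11 +5298, in untranslated sequence of Hoxa10, at 6.05 and Hoxc9 +4833, in a coding exon of Hoxc9, at 8.43. For noHMG-SOX9 the counts were 5 opened (15.2%, all regions 15.6%) and 7 closed (20%, all regions 18.4%). For noTA-SOX9 they were 6 opened (18.2%, all regions 25.3%) and 8 closed (22.9%, all regions 19.2%).

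AFOS had 6 opened (16.7%, all regions 26.3%) and 5 closed (14.3%, all regions 17.3%). SOX9+AFOS had 3 opened (11.1%, interval 3.85 to 28.1%, all regions 28.9%) and 11 closed (31.4%, interval 18.6 to 48%, all regions 34.8%). SOX9+ARID1a had 2 opened (8.33%, all regions 23.6%) and 13 closed (37.1%, interval 23.2 to 53.7%, all regions 20.5%). Both counts moved with the settings. With a score of at least 5, the opened and closed counts were 5 and 2 in WT-SOX9, 3 and 3 in noHMG-SOX9, 2 and 7 in noTA-SOX9, 3 and 5 in AFOS, 4 and 4 in SOX9+AFOS, and 2 and 8 in SOX9+ARID1a. With lists of equal size they were 4 and 4, 7 and 5, 3 and 7, 1 and 7, 4 and 7, and 0 and 11 in the same order. The balance thus turned in WT-SOX9, noHMG-SOX9 and AFOS under at least 1 of these settings. When peaks had to cover 25% of a region, SOX9+AFOS had 5 opened and 11 closed. The opened regions were weak, with scores of 3.09 to 8.49. No HOX region was in all 3 lists with full-length SOX9 and DOX and absent from noDOX (0 of 19, interval 0 to 16.8%, against 10.1% of all regions), although 1 was when peaks had to cover 25% of a region.

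All 4 HOX regions closed in all 6 arms were at Hoxd (11.4% of 35, interval 4.54 to 26%, against 2.58% of all noDOX regions). They were Hoxd11 -249 (4.93 in noDOX), Hoxd1 +93 (3.55), Hoxd13 +236 (3.19) and Hoxd9 +485 (3.17). With Hoxb2 -9590 (3.39) they made up the 5 noDOX regions that none of the 3 full-length SOX9 lists held (14.3% of 35, interval 6.26 to 29.4%, against 10.4% of all noDOX regions). All 5 stood within the lowest 21% of noDOX peaks, and none was kept with a score of at least 5. In skin, Hoxd1 +93 was held by all 5 lists with scores of 5.74, 4.33, 10.1, 11.5 and 7.41, and Hoxd11 -249 by 4, with 3.83 at D0, 4.21 at W2, 7.87 at W6 and 3.98 at W12. Hoxd3 +4099, the strongest Hoxd region in culture at 8.99 in noDOX, scored 4.28 in WT-SOX9, 3.08 in noTA-SOX9, 4.86 in AFOS and 8.68 in SOX9+AFOS, with no peak in noHMG-SOX9 and SOX9+ARID1a.

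At Hoxa7 and Hoxa9, SOX9+AFOS and SOX9+ARID1a had lower peaks than the other culture lists or none. Hoxa9 +1468 scored 5.42 in noDOX, 11 in WT-SOX9, 11.8 in noHMG-SOX9, 8.77 in noTA-SOX9 and 5.83 in AFOS and had no peak in SOX9+AFOS or SOX9+ARID1a. Hoxa7 +16 showed the same, with 4.0, 8.75, 8.04, 4.76 and 5.30 in the first 5. Hoxa7 -4333 scored 23.7 in noDOX and 19.7 to 28.1 in those other 4 arms, against 9.22 in SOX9+AFOS and 5.70 in SOX9+ARID1a. Both lists are among those named for fragments, and so is AFOS, which held all 3 peaks. Both combined arms also came from cells that held the TRE-myc-Sox9 transgene. The parts of peak calling and cell source in these values were not tested.

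Consensus matches, which the choice of members did not use, were counted in the 77 regions. SOX matches were in 5 of 77 (6.49%, all regions 15.3%), AP1 matches in 4 (5.19%, all regions 33.1%), GATA matches in 11 (14.3%, all regions 27.9%) and RUNX matches in 19 (24.7%, all regions 39.3%). HOX-PBX matches were in 8 (10.4%, all regions 10.8%), and CTCF matches in 0 (all regions 2.98%). The 5 SOX matches were in Hoxa2 -1173, Hoxa5 +2919, Hoxa5 +265, Hoxb3 +4000 and Hoxc4 +7133, and those in Hoxa5 +2919 and Hoxc4 +7133 came with an AP1 match. The AP1 match of Hoxc4 +7133 lies at chr15:103041766-103041772, in the stretch printed above, and its SOX match at chr15:103041244-103041250. In the central 200 bp AP1 matches were in 3 (3.90%, all regions 19.4%) and SOX matches in 1 (1.30%, all regions 6.07%). GATA matches were there in 4 (5.19%, all regions 10.7%), RUNX matches in 7 (9.09%, all regions 16.5%) and HOX-PBX matches in 1 (1.30%, all regions 4.5%). Base composition differed too, as HOX regions had a median GC content of 56.9% against 47.7%, and its part in these shares was not tested. A match is a string of letters and was not read as a bound site.

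Of 32 genes that work with HOX proteins or act on the clusters, 28 had an open start in all 12 lists, where 47.7% of all protein-coding genes did. In a single list, 51.9 to 63.9% of all protein-coding genes were open. All 13 Polycomb genes, among them Ezh2 (scores 27.4 to 87.7), which methylates histone H3 at lysine 27, had an open start in each of the 12 lists. Of 10 Trithorax and H3K27 demethylase genes, which oppose Polycomb, 9 or 10 were open in each list, the exception being Kdm6b, absent from all skin lists and open in noHMG-SOX9 (9.07), SOX9+AFOS (7.22), AFOS (5.40) and SOX9+ARID1a (4.68). Of 9 PBX, MEIS and PKNOX cofactor genes, whose products bind DNA with HOX proteins, 6 to 8 were open. Pknox2 was open in 8 lists, Pbx2 in 5 and Meis3 in 4. Meis1 (15.6 to 52.3) and Meis2 (16.2 to 42.9) were open in all 12. The Evx1 and Evx2 genes next to Hoxa and Hoxd were open in none, and of 6 ParaHox genes Gsx1 alone was open, in 10 lists at 3.48 to 9.23.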

How the data were processed

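The authors ran PEPATAC on paired-end reads with GRCm38 as the genome, merged the replicates of a group, called peaks with MACS2 while keeping duplicates, normalized the peak score and removed peaks under 3. The submitters' processing notes name Bowtie2 2.2.9, MACS2 2.1.1, SAMtools 1.9, Picard 2.3.0 and deepTools 2.5.4. The files deposited by the authors gave, for skin, the normalized score, the fold enrichment ratio over local background, the −log10 q-value and the summit position, and for culture the score alone. The files do not state how the score was scaled; its column sums to nearly the same total in every list. It was used to rank and compare peaks, the −log10 q-value as a filter in 1 alternative, and the fold enrichment was not printed.

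Peaks were merged, counted and matched to GENCODE M21 genes with numpy and pandas in Python, and the steps were tested on simulated lists. A gene start was open with a peak within 1 kb. Region shares count a list's regions that the other list lacked. Shares carry 95% Wilson intervals for counting error only. Motif shares cover chromosomes 1 to 19 and X. The genes named were all 39 Hox genes by their starts, and the regions named were the highest per cluster in skin and in culture, those particular to skin or culture lists, up to 5 particular to the graft, and up to 5 each gained or lost with full-length SOX9. Some genes and sequences are not reported here. Further regions were named after their values were seen. The members and gene lists were chosen with earlier results of these data known. Alternatives were a score of at least 5, lists of equal size (49458 peaks), a common −log10 q minimum, flanks of 0 and 10 kb, other start definitions and a 25% cover rule.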

Additional observations from a re-analysis of the deposited data

How the results depend on the processing

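No paired analysis was possible because the authors merged the 2 replicates of each group before calling peaks, so no value carries a replicate number. Each comparison rests on single lists of unknown read depth, weak peaks near the score of 3 decide most counts, and equal scores rest on unequal evidence among the skin lists. Of 251 values computed under the alternatives, 157 stayed within 1.5 times the deposited value and 94 did not. A flank of 10 kb (17 values) and the start of the longest coding transcript (12 values) moved none. Unless an alternative removes peaks or starts by its own construction, the cause of a change was not tested.

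With a score of at least 5, Hoxb had 17 regions, Hoxc 13 and Hoxd 4. HOX peaks numbered 21 at D0, 23 at W2, 25 at W6, 19 at W12, 22 in noDOX, 17 in noTA-SOX9 and 20 in AFOS. Open starts numbered 14 at W1, 12 at W6, 8 at W12, 13 in noDOX, 12 in noTA-SOX9 and 11 in AFOS. New regions numbered 3 from W1 to W2, 5 from W2 to W6, 2 from W6 to W12, 9 from D0 to W6 and 3 from D0 to W12, lost ones 3 from W2 to W6 and 9 from W6 to W12, and those particular to the graft 0. Opened regions numbered 5 in WT-SOX9, 3 in noHMG-SOX9, 2 in noTA-SOX9 and 3 in AFOS, closed ones 2 in WT-SOX9, 3 in noHMG-SOX9, 4 in SOX9+AFOS and 8 in SOX9+ARID1a, and noDOX regions in none of the full-length SOX9 lists 0.

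With lists of equal size, the 49458 highest peaks each, Hoxd had 5 regions. HOX peaks numbered 23 at W2, 19 at W6, 19 at W12 and 25 in AFOS, and open starts 9 at W6, 8 at W12 and 12 in AFOS. Lost regions numbered 2 from D0 to W1, 4 from W6 to W12 and 11 from D0 to W6, new ones 1 from W1 to W2, 3 from W2 to W6, 3 from W6 to W12, 3 from D0 to W6 and 0 from D0 to W12, and those particular to the graft 0. Opened regions numbered 4 in WT-SOX9, 3 in noTA-SOX9, 1 in AFOS and 0 in SOX9+ARID1a, closed ones 4 in WT-SOX9 and 7 in SOX9+AFOS, and noDOX regions in none of the full-length SOX9 lists 2.

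With the common −log10 q minimum of 14.5 in skin, HOX peaks numbered 14 at W2 and 16 at W6, and open starts 7 at W2, 8 at W6 and 11 at W12. New regions numbered 10 from D0 to W1, 1 from W1 to W2, 5 from W2 to W6, 11 from W6 to W12, 1 from D0 to W6 and 5 from D0 to W12. Lost ones numbered 10 from D0 to W1, 2 from W2 to W6, 2 from W6 to W12, 19 from D0 to W6 and 14 from D0 to W12. The balance of new and lost regions turned from D0 to W6 and from W6 to W12 and became even from D0 to W1. With lists of equal size it turned from D0 to W6 and from W2 to W6. From D0 to W12, nearly even as deposited, lost regions were the more numerous under both and with a score of at least 5.

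When a peak had to cover the start itself, open starts numbered 7, 12, 6, 6 and 7 from D0 to W12, 14 in noDOX, 11 in WT-SOX9, 8 in noHMG-SOX9, 10 in noTA-SOX9, 12 in AFOS and 5 in SOX9+ARID1a. With gene bodies alone the HOX peaks of W6 numbered 30. When peaks had to cover 25% of a region, 4 were opened in WT-SOX9, 5 in SOX9+AFOS, 1 in all 3 full-length SOX9 lists, and 3 were in all culture lists and no skin list. Matches in the central 200 bp were in 1 HOX region for SOX, 4 for GATA, 7 for RUNX and 1 for HOX-PBX. Leaving out the list labelled W1, which was chosen after seeing the data, gave 3 regions in all culture lists and no skin list and kept the other 7 values within 1.5 times.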

Other observations

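In 5 of the 7 culture lists, noHMG-SOX9 and noTA-SOX9 being the exceptions, the strongest peak near Hoxb lay outside the members, in the 64.0 kb between Hoxb13 and Hoxb9. The regions below were picked after their values were seen. A region at chr11:96252492-96253148 (GRCm38), in an intron of the noncoding gene Gm53 and 18637 bp upstream of the Hoxb9 start, had no peak at D0 or W1 and scored 12.5 at W2, 18.8 at W6 and 14.1 at W12. In culture it scored 27.7 in noDOX, 50.7 in WT-SOX9, 17.9 in noHMG-SOX9, 10.2 in noTA-SOX9, 27.7 in AFOS, 31.2 in SOX9+AFOS and 59.9 in SOX9+ARID1a. The culture values of WT-SOX9 and SOX9+ARID1a were the highest and those of both truncated SOX9 forms the lowest.

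A second region at chr11:96260108-96261043, 10882 bp upstream of the same start, had a peak in all 12 lists. From D0 to W12 it scored 7.29, 7.53, 9.90, 9.90 and 20.8, and it scored 13.9 (noTA-SOX9) to 33.6 (AFOS) in culture. The graft thus had the highest skin value. These are values of single lists with no replicate error, and no test was made.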
